A study of Rattus norvegicus with 54 samples.

Results

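Of 54 bulk RNA sequencing libraries of rat nucleus accumbens, 9 were rich in the transcript of Ttr (transthyretin), a marker of choroid plexus. They were selected on their own Ttr values: the 54 libraries were ranked by Ttr in CPM, which scales counts to the total of each library, and the 9 highest were set against the 18 lowest. The other 27 libraries, in the middle of the ranking, entered neither class. The nucleus accumbens is the ventral part of the striatum, and its dorsal and medial edge lies close to the lateral ventricle. The rats were Long Evans. Prenatal exposure was either ethanol (PAE) or a free-choice liquid diet (FCL), followed in adolescence by alcohol (AAE) or water (VEH). Adults, sampled at postnatal day 90 (P90), comprised 6 male PAE-AAE, 6 male FCL-VEH, 5 female PAE-AAE and 8 female FCL-VEH libraries. Adolescents, sampled at P42 soon after the last adolescent dose, comprised 9 male PAE-VEH, 9 male FCL-VEH, 4 female PAE-VEH and 7 female FCL-VEH libraries. In adults the prenatal and adolescent exposures come together and cannot be told apart, and all animals received an adolescent treatment of alcohol or water.

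The choroid plexus is a folded sheet of ciliated epithelium over a leaky, fenestrated vascular core that hangs in the brain ventricles and secretes cerebrospinal fluid. Its epithelial cells move sodium, chloride, bicarbonate and water from blood to ventricle, seal the sheet with claudin junctions that still leak ions, and release carrier proteins into the fluid. Transthyretin, which carries thyroxine, is among the most abundant transcripts of these cells and is made by few other cells of the brain. The accumbens itself contains no plexus, while the lateral ventricle beside it does.

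Ttr stood at 3620 CPM in female PAE-AAE P90 replicate 3, at 3325 CPM in male FCL-VEH P90 replicate 6 and at 2109 CPM in male FCL-VEH P90 replicate 4. Male FCL-VEH P42 replicate 5 had 1675 CPM, male FCL-VEH P90 replicate 3 had 1475 CPM and male PAE-AAE P90 replicate 6 had 1420 CPM. The last 3 of the 9 were female FCL-VEH P42 replicate 7 at 1358 CPM, female PAE-AAE P90 replicate 2 at 1263 CPM and male PAE-VEH P42 replicate 3 at 1230 CPM. The 18 lowest libraries lay between 2.98 and 69.9 CPM, with a median of 32.2 CPM against 1475 CPM in the 9 highest, a ratio of 45.8. The ranking had a gap at its upper border, where the lowest of the 9 stood at 1230 CPM and the next library at 817.8 CPM. It had none at its lower border, where the highest of the 18 stood at 69.9 CPM and the next library at 72.7 CPM. Over all 54 libraries Ttr spanned a 1215-fold range.

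The 9 libraries came from 6 of the 8 groups. Male FCL-VEH P90 supplied 3 of its 6, female PAE-AAE P90 supplied 2 of its 5, and male PAE-AAE P90, male PAE-VEH P42, male FCL-VEH P42 and female FCL-VEH P42 supplied 1 each. Female FCL-VEH P90 and female PAE-VEH P42 supplied none, and all 8 libraries of female FCL-VEH P90 fell in the middle class. Each of the 6 groups with a high library also held at least 1 low library, so high and low Ttr could be set against each other within groups. Ttr varied widely within groups. In male FCL-VEH P90 it ran from 33.6 to 3325 CPM, and in female PAE-AAE P90 from 7.95 to 3620 CPM.

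**Figure D1:**
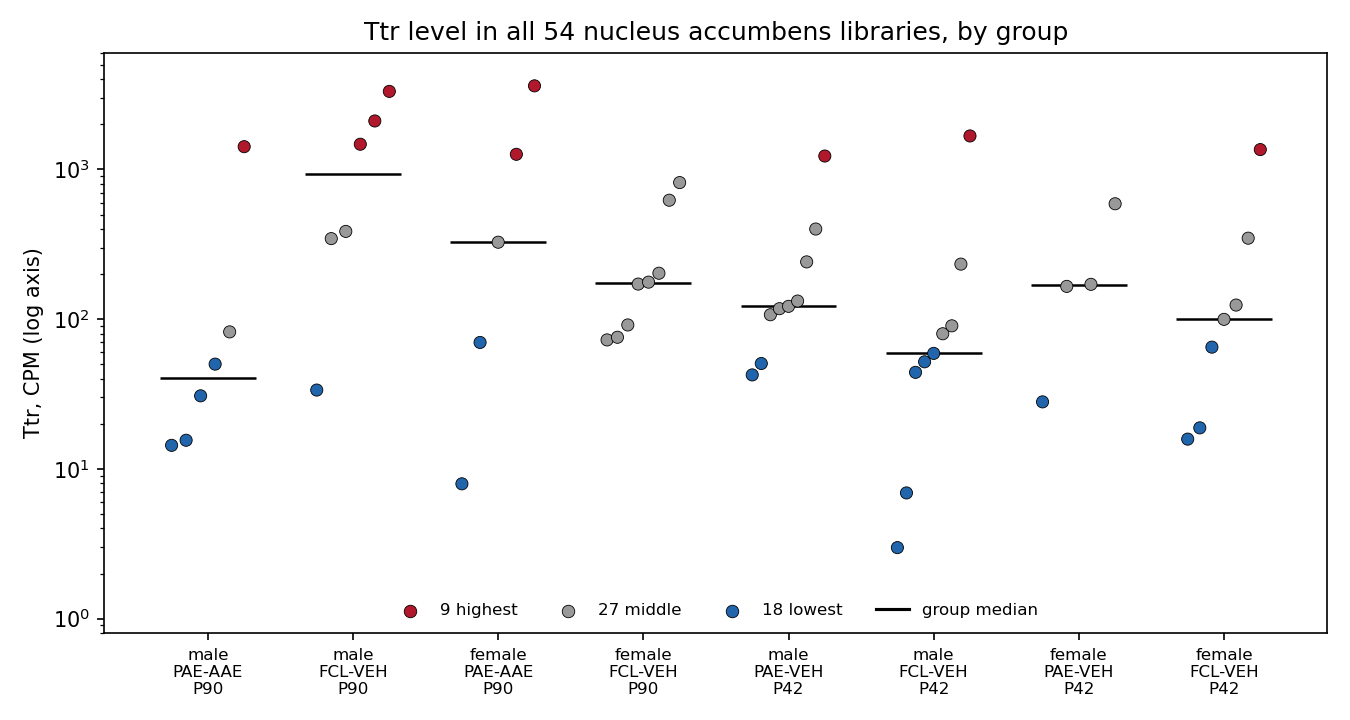
Ttr in CPM on a log axis in each of the 54 libraries (points), by group, with the group median as a bar; red marks the 9 highest libraries, grey the 27 in the middle and blue the 18 lowest. High and low libraries occur side by side in 6 groups, and the male FCL-VEH P90 median of 930.5 CPM is the highest of the 8.

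Levels of different genes were compared per length, as CPM per kilobase of the deposited gene length. On this scale the median Ttr level was 1779 in the 9 highest libraries and 38.8 in the 18 lowest. By that median Ttr ranked 3 among all named genes in the 9 highest libraries and 1535 in the 18 lowest. Other transcripts typical of plexus epithelium were far scarcer per length. Folr1, Sostdc1, Clic6 and Kl had median levels of 11.3, 9.43, 9.30 and 3.95 CPM per kilobase in the 9 highest libraries.

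Total counts lay between 66.9 and 82.4 M in the 9 highest, between 58.8 and 103.5 M in the 27 middle and between 59.3 and 95.8 M in the 18 lowest libraries, so depth overlapped between the classes. The labels do not say that the libraries come from separate animals, and p-values measure the spread between these libraries. Xist and Y-linked counts went against the labelled sex in 3 libraries, all of them in the middle class. Accumbens tissue was present in both classes. The 14 markers of striatal spiny neurons summed to between 4447 and 8337 CPM in the 9 highest libraries and between 3880 and 9072 CPM in the 18 lowest, with Drd1, Drd2, Ppp1r1b and Penk all abundant. In bulk RNA, fewer cells of a type and less RNA per cell cannot be told apart. Library construction kept no strand information, which leaves reads of overlapping or antisense genes uncertain.

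Folds between the 9 highest and the 18 lowest libraries were fitted on counts with group as a covariate and are given as a description, without a test, because Ttr itself chose the libraries. Of 16388 genes with a mean of at least 1 CPM over these 27 libraries, 66 were at least 2-fold higher in the 9 highest libraries (0.403% of these genes) and 12 were at least 2-fold lower (0.0732%). The median log2 fold of all 16388 genes was 0.01. For 17 genes, 0.104% of the total, the lowest of the 9 libraries stood above the highest of the 18, and no gene showed the reverse. Besides Ttr these were F5, Prr32, Slco1a5, Mfrp, Sostdc1, Cldn2, Cltrn, Slc4a5, Kl, Rbm47, Kcne2, Crb3, Mdk and 3 unnamed loci. The mean runs over both classes, so genes such as Prr32, Slco1a5 and Cltrn reached 1 CPM only through the 9 highest libraries. Their medians in the 18 lowest were 0.0557, 0.0285 and 0.116 CPM. The counts and shares depend on this filter.

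**Figure D2:**
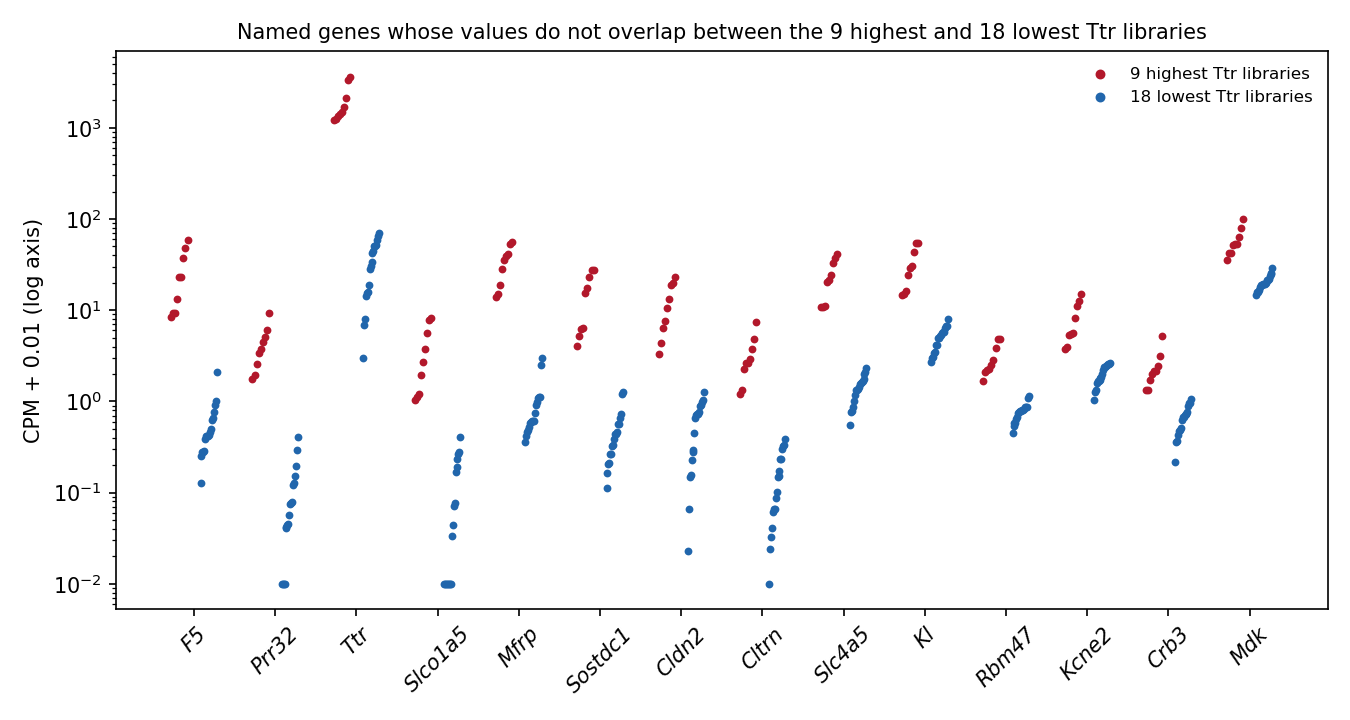
CPM on a log axis, after adding 0.01, of the 14 named genes whose values did not overlap between the 9 highest Ttr libraries (red, left of each pair) and the 18 lowest (blue, right); each point is 1 library. Mdk has the smallest separation, with 35.8 CPM as the lowest red point and 29.3 CPM as the highest blue point.

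Mfrp, a membrane protein with frizzled-like domains best known from eye growth, was the gene most like Ttr across the libraries (chromosome 8, 53342483 to 53347696). It stood at 41.5, 56.5, 39.2, 52.6, 18.9, 35.5, 28.6, 15.01 and 13.8 CPM in the 9 libraries, in descending order of Ttr. In the 18 lowest libraries it lay between 0.35 and 2.97 CPM, with a median of 0.606 CPM. All 9 libraries thus stood above all 18, and the log2 fold was 5.05 ± 0.34 (SE, here and for the folds that follow). This SE was derived from the F statistic of the fit, so between the 2 classes it is a description and no test. Prr32 and Cltrn were scarce. Prr32, a proline-rich protein, had a median of 3.78 CPM in the 9 highest and 0.0557 CPM in the 18 lowest libraries. Cltrn, or collectrin, a partner of amino acid transporters known from kidney, had medians of 2.63 CPM in the 9 highest and 0.116 CPM in the 18 lowest. Rbm47, an RNA-binding protein of epithelia, had medians of 2.50 CPM in the 9 highest and 0.772 CPM in the 18 lowest, and Crb3, which sets the apical side of epithelial cells, had 2.17 CPM in the 9 highest and 0.665 CPM in the 18 lowest. Mdk, the secreted growth factor midkine, had medians of 52.7 CPM in the 9 highest and 19.5 CPM in the 18 lowest, a log2 fold of 1.37 ± 0.15. Mdk overlaps Chrm4 in the annotation.

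The DNA before the transcription start is shown for Ttr, which ranked the libraries, and for Mfrp and Cltrn, the 2 genes of this non-overlapping set whose window held a searched motif. RefSeq promoter windows of the rat assembly GRCr8 were found for 10 of the 14 named genes. Each window is the 250 bases before the start used in the RefSeq promoter table, 5′ to 3′ on the gene's strand. For Ttr and Mfrp that start lies inside the gene as the deposited table bounds it, so the Ttr window lies wholly and the Mfrp window partly within the gene. The motifs searched on both strands were GGATTA (reverse TAATCC), the core bound by OTX-type homeobox factors, and TGTTTGC (reverse GCAAACA), a core bound by forkhead factors. They are in capitals.
Ttr promoter, chr18:12218508-12218757, plus strand: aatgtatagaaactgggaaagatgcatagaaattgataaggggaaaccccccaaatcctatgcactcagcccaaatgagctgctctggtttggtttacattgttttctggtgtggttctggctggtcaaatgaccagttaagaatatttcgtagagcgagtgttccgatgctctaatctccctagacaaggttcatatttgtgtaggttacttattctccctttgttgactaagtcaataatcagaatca
Mfrp promoter, chr8:53342284-53342533, plus strand: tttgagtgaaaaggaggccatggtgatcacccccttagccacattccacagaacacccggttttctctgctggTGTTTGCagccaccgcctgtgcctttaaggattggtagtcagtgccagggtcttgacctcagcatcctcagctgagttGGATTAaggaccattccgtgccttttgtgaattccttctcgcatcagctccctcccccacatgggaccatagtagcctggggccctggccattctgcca
Cltrn promoter, chrX:34027125-34027374, minus strand: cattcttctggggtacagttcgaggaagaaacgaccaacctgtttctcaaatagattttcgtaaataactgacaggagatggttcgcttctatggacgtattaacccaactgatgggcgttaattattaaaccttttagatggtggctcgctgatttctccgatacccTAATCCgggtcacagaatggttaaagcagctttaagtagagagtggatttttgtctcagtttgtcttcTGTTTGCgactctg

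The Mfrp window held both motifs and so did the Cltrn window, while the Ttr window held neither. Only these exact letters were searched, so other forms of either site in the Ttr window were not looked for. Of 33469 windows in the table, 6.34% held the first motif and 4.16% the second, and each was in 2 of the 10 windows of this set. These matches are descriptions of letters and show no binding.

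The plexus genes were read through 5 lists by role, with 56 members besides Ttr. Of the 56, all tested, 28 were at least 2-fold higher in the 9 highest libraries and none was 2-fold lower, with a median log2 fold of 0.97. Among all 28882 genes tested, scarce ones included, 5.33% were at least 2-fold higher. In 49 of the 56 the mean reached 1 CPM, and 23 of these 49 were at least 2-fold higher, beside 0.403% of all genes at that level. The values of 11 members did not overlap between the classes, beside 0.0935% of all genes tested, and 7 of the 11 had a mean of at least 1 CPM, beside 0.104% of the genes at that level. The same libraries chose the contrast, and the lists were chosen with earlier results of these data known. These counts thus describe the libraries and are no test. Summed over a list, CPM overlapped between the classes for all 5. Secreted members besides Ttr summed to 2500 to 3342 CPM in the 9 highest and 1868 to 2730 CPM in the 18 lowest libraries. Ion and water transport summed to 2452 to 2763 CPM in the 9 highest and 2299.9 to 2818 CPM in the 18 lowest, and receptors and solute transporters to 363 to 592 CPM in the 9 highest and 349 to 534 CPM in the 18 lowest. Junctions and keratins summed to 171 to 319 CPM in the 9 highest and 178.7 to 338 CPM in the 18 lowest, and transcription factors to 117 to 397 CPM in the 9 highest and 112 to 291 CPM in the 18 lowest. The sums are led by members that other brain cells also make, such as Cpe and Atp1b1.

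Among 12 secreted carriers and factors besides Ttr, 5 were at least 2-fold higher, with a median log2 fold of 0.41. F5, coagulation factor V, had the largest log2 fold of any named gene with a mean of at least 1 CPM, at 5.65 ± 0.39 (chromosome 13, 79046657 to 79116247). Its values were 8.34 to 58.96 CPM in the 9 highest libraries, with a median of 23.2 CPM, and 0.116 to 2.11 CPM in the 18 lowest, with a median of 0.412 CPM. F5 overlaps an uncharacterised locus in the annotation. Sostdc1, a secreted antagonist of BMP and Wnt signals, ranged from 4.01 to 27.9 CPM in the 9 highest libraries and from 0.103 to 1.25 CPM in the 18 lowest, a log2 fold of 4.85 ± 0.41. These 2 genes were near absent from low libraries. Igf2, an insulin-like growth factor, and Igfbp2, which binds it, overlapped between the classes: Igfbp2 had medians of 42.0 CPM in the 9 highest and 6.03 CPM in the 18 lowest, and Igf2 70.1 CPM in the 9 highest and 25.1 CPM in the 18 lowest. Enpp2, autotaxin, which makes lysophosphatidic acid, ranged from 196 to 696 CPM in the 9 highest and from 108.7 to 218.6 CPM in the 18 lowest libraries, a log2 fold of 1.34 ± 0.16. Its low values were far above 0. Of the other secreted members, Spint2, Rdh5, Stra6, Ecrg4, Cpe and Wfdc2 had log2 folds between -0.21 and 0.46.

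Among 14 genes of ion and water transport, 6 were at least 2-fold higher and the median log2 fold was 0.60. Slc4a5, a sodium bicarbonate cotransporter of the apical membrane, ranged from 10.7 to 41.7 CPM in the 9 highest libraries and from 0.539 to 2.32 CPM in the 18 lowest, a log2 fold of 3.99 ± 0.25. Kcne2, a potassium channel subunit, ranged from 3.77 to 15.2 CPM in the 9 highest and from 1.02 to 2.66 CPM in the 18 lowest. Trpv4, a cation channel sensitive to osmotic pressure, had medians of 2.10 CPM in the 9 highest and 0.252 CPM in the 18 lowest and did not overlap, though its mean was under 1 CPM. Kcnj13, an inward rectifier of potassium, had a log2 fold of 3.14 ± 0.36 with 2 low libraries above the lowest high one, and it overlaps Gigyf2. Aqp1, the apical water channel, ranged from 2.28 to 15.4 CPM in the 9 highest libraries and from 0.155 to 3.72 CPM in the 18 lowest, and 1 low library stood above the lowest high one. Clic6, an intracellular chloride channel protein, was the least uniform: it ranged from 2.10 to 46.02 CPM in the 9 highest and from 0.573 to 9.43 CPM in the 18 lowest, and 15 low libraries stood above the lowest high one. Of the transporters that neurons and glia share, Slc4a2 had a log2 fold of 0.71 ± 0.11, while Slc12a2 and Atp1b1 lay closer to the median of all genes, at 0.21 ± 0.10 and -0.07 ± 0.07.

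Among 14 receptors and solute transporters, 8 were at least 2-fold higher and the median log2 fold was 1.35. Slco1a5, a carrier of organic anions and thyroid hormone, ranged from 1.03 to 8.19 CPM in the 9 highest libraries and from 0 to 0.397 CPM in the 18 lowest. It has close relatives in the same gene family, so its counts depend on how shared reads were assigned, and it overlaps Iapp. Kl, klotho, the co-receptor of a phosphate-regulating growth factor, ranged from 14.5 to 54.5 CPM in the 9 highest and from 2.71 to 7.91 CPM in the 18 lowest, a log2 fold of 2.67 ± 0.22. Tmem72, a membrane protein of unknown role, had a log2 fold of 3.19 ± 0.32. Steap1, a member of the STEAP family of metalloreductases, had 1.74 ± 0.32 and did not overlap, at a mean under 1 CPM. Abca4, a lipid flippase known from the retina, the prolactin receptor Prlr, the folate receptor Folr1 and the sulfate transporter Slc13a4 had log2 folds of 1.66, 1.57, 1.42 and 1.28, and each overlapped between the classes. Folr1, for example, ranged from 6.85 to 39.01 CPM in the 9 highest libraries and from 0.809 to 16.8 CPM in the 18 lowest. Htr2c, a serotonin receptor dense in plexus and also made by accumbens neurons, ranged from 204 to 393 CPM in the 9 highest and from 262 to 418 CPM in the 18 lowest, a log2 fold of -0.20 ± 0.09.

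Of 8 junction and keratin genes, 6 were at least 2-fold higher, with a median log2 fold of 1.30. Cldn2, the claudin that makes tight junctions leaky to sodium and water, ranged from 3.33 to 23.2 CPM in the 9 highest libraries and from 0.0129 to 1.26 CPM in the 18 lowest, a log2 fold of 4.49 ± 0.44. Cldn1 and Cldn3, sealing claudins, had log2 folds of 2.61 ± 0.34 and 1.51 ± 0.36 at means under 1 CPM. The cadherin Cdh3 had 1.47 ± 0.24, the calmodulin-like Calml4 1.13 ± 0.27, and the keratins Krt18 and Krt8 1.01 ± 0.30 and 0.94 ± 0.34. Pcp4l1, which striatal neurons also make, had -0.23 ± 0.12.

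Of 8 transcription factors, 3 were at least 2-fold higher and the median was 0.71. Lmx1a, which patterns the roof plate that gives rise to plexus, ranged from 0.667 to 3.33 CPM in the 9 highest and from 0 to 0.61 CPM in the 18 lowest libraries, without overlap. Otx2, the homeobox factor that maintains plexus epithelium, ranged from 4.14 to 16.9 CPM in the 9 highest and from 1.34 to 9.43 CPM in the 18 lowest, a log2 fold of 1.03 ± 0.27, and Msx1 had 1.07 ± 0.27. The factors of multiciliated cells, Foxj1, Tp73, Mcidas and Gmnc, had log2 folds of 0.72, 0.71, 0.61 and 0.27, and Rfx3 had -0.02.

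**Figure D3:**
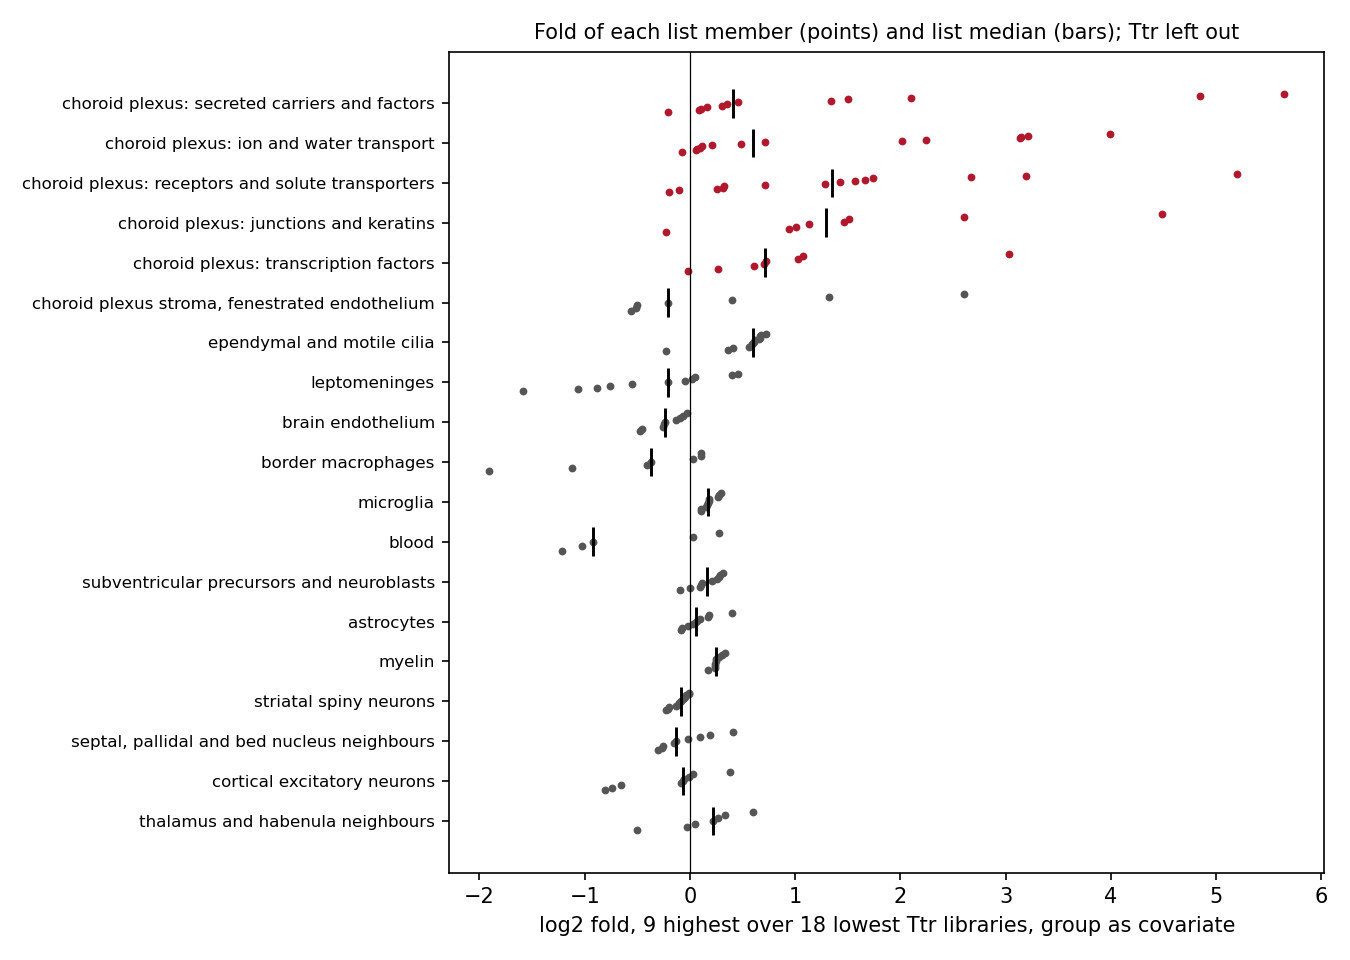
Log2 fold of each list member (points) between the 9 highest and the 18 lowest Ttr libraries, with group as a covariate, and the list median (bars); the 5 plexus lists are in red. Plexus members reach 5.65, while every member of the other lists except Col8a1 and Plvap lies under 1.

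Tissues that lie beside the plexus or the accumbens were read in the same way. The stroma and fenestrated vessels of the plexus gave a mixed picture, with 2 of 7 members at least 2-fold higher and a median log2 fold of -0.21. Col8a1, a short-chain collagen, had 2.61 ± 0.32 and Plvap, the diaphragm protein of fenestrated endothelium, had 1.32 ± 0.35. The fibroblast collagens Col1a1, Col1a2 and Col3a1 had -0.50, -0.56 and -0.52. Their medians were 12.8, 14.0 and 5.28 CPM in the 9 highest libraries and 11.9, 13.9 and 6.09 CPM in the 18 lowest. In ependyma and motile cilia, which line the ventricle, 13 of 14 measured members had positive folds, the median was 0.60 and none reached 2-fold. Their summed level ranged from 143.9 to 1655 CPM in the 9 highest and from 163 to 1246 CPM in the 18 lowest libraries, so the 2 classes overlapped almost wholly. The leptomeningeal list had a median of -0.21, and 2 of its 11 members, the transporters Slc6a13 and Slc22a6, were at least 2-fold lower, at -1.06 ± 0.43 and -1.59 ± 0.66. The whole list summed to 50.3 to 88.4 CPM in the 9 highest libraries, with a median of 72.3 CPM. In the 18 lowest it summed to 38.3 to 222.7 CPM, with a lower median of 58.4 CPM. The 222.7 CPM was that of male PAE-AAE P90 replicate 2. Among the 18 lowest, that library also had the largest sums of plexus stroma (206.3 CPM), blood and border macrophages.

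Markers of brain endothelium had a median log2 fold of -0.24, with none of 9 members positive, and summed to 206 to 316 CPM in the 9 highest and 226 to 355 CPM in the 18 lowest libraries. Blood, read from globins and 2 erythroid genes, had a median of -0.92. Its sum ranged from 2.26 to 13.3 CPM in the 9 highest and from 0.751 to 144.1 CPM in the 18 lowest libraries. The globin copies Hba-a1 and Hba-a2 are near identical, so their split is uncertain. Border macrophages had a median of -0.37 at sums of 7.17 to 21.5 CPM in the 9 highest and 7.75 to 38.2 CPM in the 18 lowest. Microglia had 0.18, with all 10 members positive and the largest, Cx3cr1, at 0.30 ± 0.15. Myelin had 0.25, with all 9 members positive, and summed to 7316 to 30659 CPM in the 9 highest and 8147 to 17593 CPM in the 18 lowest. Subventricular precursors and neuroblasts (0.16), astrocytes (0.06), spiny neurons (-0.09), septal and pallidal neighbours (-0.14), cortical excitatory neurons (-0.07) and thalamic neighbours (0.22) had no member 2-fold apart in either direction. In that order, 8 of 10, 7 of 10, 0 of 14, 3 of 9, 2 of 9 and 5 of 7 members had positive folds. No defining marker of these lists was at 0 in all 9 high libraries. The part of these neighbouring tissues in the plexus folds was not tested.

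Likeness to Ttr was measured over all 54 libraries as Pearson's r of log2(CPM + 1), centred on each group's mean, for genes with a mean of at least 1 CPM, and is given as a description, since the libraries share tissue and depth. The 10 named genes most like Ttr were Mfrp (r = 0.91), F5 (0.85), Sostdc1 (0.84), Slc4a5 (0.83), Cldn2 (0.82), Crb3 (0.81), Mdk (0.78), Kcne2 (0.74), Kl (0.74) and Enpp2 (0.72). Further down, Aqp1 stood at 0.64. Otx2 and Clic6 stood at 0.36 and 0.42, Foxj1 at 0.14 and Htr2c at -0.45.

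The 27 middle libraries entered neither class, and the relation of other genes to Ttr was tested in them. The ranking by Ttr set the range of Ttr there, which was 11.2-fold, from 72.7 to 817.8 CPM. Each gene was regressed on log2(Ttr CPM + 1) with group as a covariate in edgeR's quasi-likelihood test, which gave 1 of 28469 genes other than Ttr rising with Ttr at an adjusted p under 0.05 (0.00351%) and none falling. By the unadjusted p, 1973 genes stood under 0.05, 1000 of them with a positive slope, and DESeq2 called 8 genes, 6 rising and 2 falling. The gene that passed was Mfrp, which ran from 0.379 to 8.81 CPM in these libraries, with a median of 2.49 CPM. Its slope was 0.91 ± 0.12 log2 units per log2 unit of Ttr (SE, edgeR adjusted p = 0.00333), so the 2 transcripts moved nearly in proportion. Ttr, the regressor, was left out of the adjustment. Over 33 alternatives, Mfrp was called in 32. Of these alternatives, 27 omit a single library and so share nearly all their data. Another adds the 18 lowest libraries, which Ttr selected, so the tally is a description. Without female FCL-VEH P90 replicate 8, Mfrp missed the threshold (edgeR adjusted p = 0.0526), and no gene was called.

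The next genes by p did not pass. F5 had a slope of 0.91 ± 0.15 (edgeR adjusted p = 0.0808), Sostdc1 0.69 ± 0.15, Cltrn 1.04 ± 0.23 and Cldn2 0.66 ± 0.15 (edgeR adjusted p = 0.599 for the last 3). F5 passed once the 3 libraries with Xist and Y-linked counts against the labelled sex were omitted (edgeR adjusted p = 0.0154, and 2 genes called in all). Over the 33 alternatives its adjusted p ran from 0.000457 to 0.665, and it passed in 7. Of the 56 plexus members besides Ttr, 42 had positive slopes, with a median of 0.16 beside a share of 49.9% positive among all genes. Of the 56, 9 had a positive slope at an unadjusted p under 0.05 and none passed the adjustment. The lists were chosen with earlier results of these data known, so these counts are a description. The 65 genes at least 2-fold higher in the 9 highest libraries, Ttr left out, had a median slope of 0.20 in the middle libraries, and 53 were positive. Many of the other lists also lay mostly to 1 side in these libraries, and none had a member called. Myelin had 9 of 9 slopes positive with a median of 0.14, septal and pallidal neighbours 9 of 9 (0.11), microglia 9 of 10 (0.08) and ependymal and motile cilia 12 of 14 (0.13). Astrocytes and subventricular precursors had 8 of 10 each (0.04 and 0.06), blood 4 of 5 (0.20), and plexus stroma and thalamic neighbours 4 of 7 each (0.08 and 0.11). Brain endothelium had 1 of 9 positive (-0.12), border macrophages 1 of 7 (-0.12) and leptomeninges 2 of 11 (-0.10). Spiny neurons had none of 14 positive, with a median of -0.14. Among these, Tac1 and Pdyn, precursors of substance P and dynorphin, had slopes of -0.25 ± 0.09 and -0.13 ± 0.05 and did not pass (edgeR adjusted p = 0.685 for both). Cortical excitatory markers had a median slope of -1.002, with 1 of 9 positive and none called. Their part in the slopes was not tested.

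**Figure D4:**
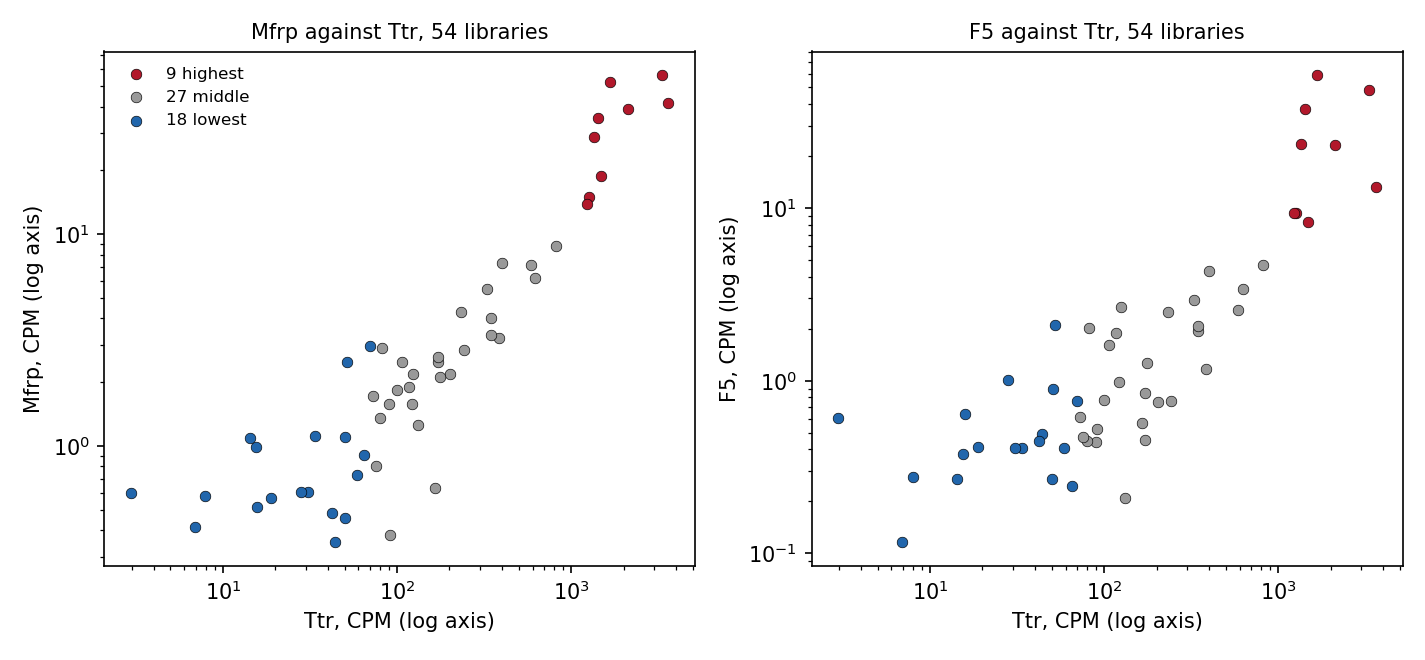
Mfrp (left) and F5 (right) against Ttr, all in CPM on log axes, in the 54 libraries; red marks the 9 highest, grey the 27 middle and blue the 18 lowest Ttr libraries. Mfrp follows Ttr through the grey points, from 0.379 to 8.81 CPM, and lies between 0.35 and 2.97 CPM among the blue ones.

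The 9 libraries did not hold the plexus transcripts in 1 proportion. Per 1000 Ttr counts, Mfrp varied least, from 11.2 in male PAE-VEH P42 replicate 3 to 31.4 in male FCL-VEH P42 replicate 5, a ratio of 2.80. F5 varied 9.58-fold, from 3.67 in female PAE-AAE P90 replicate 3 to 35.2 in male FCL-VEH P42 replicate 5. Between the same 2 libraries Kl, Slc4a5 and Cldn2 varied 4.85-fold, 4.18-fold and 6.51-fold, and Aqp1 14.6-fold. Clic6 ranged from 0.581 in female PAE-AAE P90 replicate 3 to 32.4 in male PAE-AAE P90 replicate 6, a ratio of 55.8, and Folr1 10.6-fold between the same libraries. Foxj1, the master factor of motile cilia, ranged from 5.91 to 125.4 per 1000 Ttr counts, highest in male FCL-VEH P90 replicate 3. For 11 of the 12 genes so examined the lowest ratio was that of female PAE-AAE P90 replicate 3. As the library with the most Ttr it has the largest divisor, and in CPM it was the lowest of the 9 for 3 of the 12 genes, Aqp1, Clic6 and Foxj1. The fewest counts behind any of these ratios were the 147 of Clic6 in that library.

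The cilia markers of female PAE-AAE P90 replicate 3 summed to 143.9 CPM, the lowest of the 9, against 1655 CPM in male PAE-AAE P90 replicate 6. Its cortical excitatory markers summed to 688 CPM, beside 140 to 215 CPM in the other 8, and Slc17a7, the vesicular glutamate transporter of cortical neurons, stood at 359.7 CPM there and at 7.83 to 50.9 CPM in the others. Without it, 98 genes in place of 66 were at least 2-fold higher in the remaining 8 libraries. Without male PAE-VEH P42 replicate 3 the number was 105, with 22 in place of 12 lower, and without female FCL-VEH P42 replicate 7 it was 85, with 19 lower. With the 6 highest libraries alone it was 219, with 40 lower, so the counts depend on which libraries represent high Ttr.

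**Figure D5:**
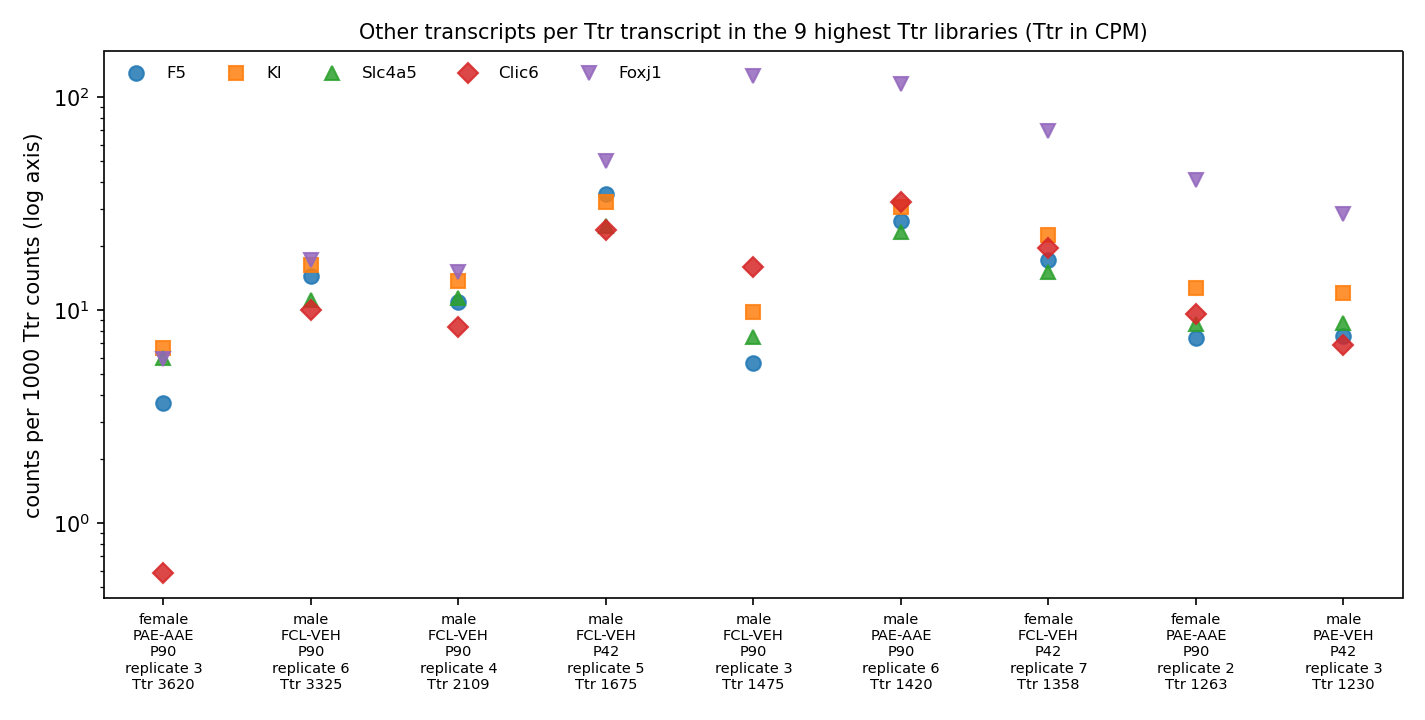
Counts of F5, Kl, Slc4a5, Clic6 and Foxj1 per 1000 Ttr counts, on a log axis, in each of the 9 highest Ttr libraries, ordered by Ttr. Female PAE-AAE P90 replicate 3, at the left, has the lowest value of each of the 5 genes, and Foxj1 does not follow the others, with 125.4 in male FCL-VEH P90 replicate 3.

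The comparisons of the study asked whether age or ethanol changed the accumbens, and Ttr was read in each of them. They were tested with all 54 libraries in 1 edgeR fit. In FCL-VEH males, Ttr stood at 3325, 2109, 1475, 386, 345 and 33.6 CPM at P90. At P42 it stood at 1675, 233, 90.3, 79.9, 59.1, 51.9, 44.2, 6.91 and 2.98 CPM. The ages overlapped, and 3 of 6 adults against 1 of 9 adolescents were in the high class. The log2 fold of P90 over P42 was 2.45 ± 1.09 and did not pass (edgeR adjusted p = 0.215). In FCL-VEH females it was -0.01 ± 1.06 (edgeR adjusted p = 0.998). For PAE-VEH over FCL-VEH at P42 it was -0.04 ± 0.81 (0.992), and for PAE-AAE over FCL-VEH at P90 it was -0.20 ± 0.84 (0.990), both as means over the sexes.

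Over the 56 plexus members the median log2 fold was 0.56 for age in males, beside -0.01 for all genes, -0.27 for age in females, -0.16 for ethanol at P42 and -0.05 for ethanol at P90. The age comparison in males called 938 of 26079 genes, 3.6%, with 701 higher and 237 lower at P90, and that in females called 178, 0.683%, with 99 higher and 79 lower. By DESeq2 the counts were 1467 and 377, and without the 3 libraries against their sex label edgeR called 73 genes in females. Mdk was called in males. It rose to 48.2 ± 30.1 CPM at P90 (SD, n = 6), against 21.9 ± 11.7 CPM at P42 (n = 9), a log2 fold of 1.19 ± 0.28 (SE, edgeR adjusted p = 0.0103). The 3 adult libraries of the high class held the highest adult Mdk values, 99.1, 62.9 and 52.7 CPM, and the adolescent one held the highest adolescent value, 52.3 CPM. Of the plexus list members only Calml4 was called in males, and none in females. Calml4 rose to 7.70 ± 5.78 CPM at P90 (SD, n = 6), against 2.98 ± 1.82 CPM at P42 (n = 9), with the highest adult value of 17.6 CPM in male FCL-VEH P90 replicate 3 (edgeR adjusted p = 0.0488). No gene was called in either ethanol comparison by edgeR (0% of 26079 genes), with 2071 genes at an unadjusted p under 0.05 at P42 and 1346 at P90. DESeq2 called 12 genes for ethanol at P42 and 0 at P90.

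Leaving out the 9 highest Ttr libraries removed 3 of 6 adult and 1 of 9 adolescent male controls. The age comparison in males then called 4 genes in place of 938, and the median log2 fold of the plexus members was 0.09 in place of 0.56. That of Ttr itself was 1.89 in place of 2.45, given without a test because Ttr chose the libraries left out. Calml4 had a log2 fold of 0.61 without the 9, in place of 1.397, and Mdk had 0.45 in place of 1.19. Both are also given without a test. Among male controls, the libraries left out held the highest value of both genes at both ages. The 4 genes included Casr, the calcium-sensing receptor, and Aadat, which makes kynurenic acid, both named here after their values were seen. Of the 938 genes, 935 were in the smaller fit and 934 kept their direction, with a median absolute log2 fold of 0.23 in place of 0.43. With all libraries kept and log2 Ttr added as a covariate, 96 genes were called, 94 of them among the 938, and the median absolute fold of the 938 was 0.36. The 938, like the 178 in females, were selected in the full fit, on libraries that these refits share. Their directions, folds and calls in the refits are thus a description and no test. In females, where 1 of 7 adolescents and none of 8 adults left, 177 genes were called without the 9 and 202 with the covariate, and 141 and 170 of the original 178 were still called. Without the 9, the female plexus median turned to 0.08 in place of -0.27. Ttr had a log2 fold of 1.37 in place of -0.01, again without a test. Of the adult male controls left out, replicates 4 and 6 had myelin sums of 30659 and 25537 CPM. The rest of their group had 8075 to 12723 CPM. Replicate 3, also left out, had a cilia sum of 1616 CPM, beside 190 to 712 CPM in the other adults of the group. Fewer libraries, less plexus and these other differences come together in the omission. Their parts in the lower male count were not tested and cannot be told apart there.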

How the data were processed

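Bulk RNA of 54 nucleus accumbens libraries was sequenced from a high-lipid extraction with random-hexamer cDNA that was not strand-specific, per the labels. RNA integrity numbers were above 6.3 except a single 5.8, with an average of 7.2, and all libraries carry the same batch date in the labels. Reads were processed with fastp and HISAT2 2.0.5, per the submitters' processing notes. The counter and the annotation, like the build, were not given in the sources used here. The authors deposited raw counts per gene, which all values and fits rest on, and a gene length, by which counts were divided for levels per length. A further 54 columns of per-library values in the table were not used. Of 46505 rows, 720 without a gene name (0.271% to 0.412% of a library's counts) were left out. The IDs of 45780 of the other 45785 matched GRCr8, 45774 with the same start and end. Positions are those of the deposited table.

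CPM were computed on the total of named rows, which had a median of 72.2 M and lay between 58.8 and 103.5 M. Counts carry no molecular identifiers, so depth limits counting error alone. Titles gave the groups, and replicates are numbered by accession order within them. The 9 highest, 27 middle and 18 lowest libraries were set by Ttr CPM. Folds and slopes came from edgeR 4.0.16 in R 4.3.3, with its default filter on low counts by group, TMM scaling and the two-sided quasi-likelihood F test, adjusted by Benjamini-Hochberg over all genes at 0.05 (all but Ttr for the slopes). Each SE is the absolute fold or slope divided by the square root of its F statistic. The design comparisons used 1 fit of 8 group means. The fits were tested on simulated data.

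Named genes are the members of the plexus lists, up to 4 members of each other list, the 5 genes with the smallest p in the middle libraries (mean of at least 1 CPM), and the 10 most like Ttr. The other genes without overlap between classes were named after their values were seen. Of the listed genes, Ccdc153, Ly6c1 and Tac2 were not matched. The members and lists were chosen with earlier results of these data known.

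Alternatives were size factors by relative log expression, no filter on low counts, DESeq2 1.42.0, no group covariate, other class sizes, omission of single libraries, of the 3 libraries against their sex label or of the 9 highest, and log2 Ttr as a covariate.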

Additional observations from a re-analysis of the deposited data

Results flagged for a closer look

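In 9 of 35 sets of values examined, 1 library lay farther from the rest of its set than Dixon's 95% limit allows. For normally distributed values, chance gives such a value in about 1 of 20 sets, but the 9 cannot be read against that rate. The limit was applied to CPM without a log scale, and Ttr spanned a 1215-fold range. Of the 9, 4 are Ttr itself, which chose these libraries, and 3 are Mfrp in the same libraries. In female FCL-VEH at P42, replicate 7 had 1358 CPM of Ttr beside 15.8 to 347.7 CPM in the other libraries of its group, and 28.6 CPM of Mfrp beside 0.513 to 3.35 CPM. In male FCL-VEH at P42, replicate 5 had 1675 CPM of Ttr beside 2.98 to 233 CPM, and 52.6 CPM of Mfrp beside 0.35 to 4.30 CPM. In male PAE-AAE at P90, replicate 6 had 1420 CPM of Ttr beside 14.4 to 82.3 CPM, and 35.5 CPM of Mfrp beside 0.455 to 2.90 CPM. In male PAE-VEH at P42, replicate 3 had 1230 CPM of Ttr beside 42.4 to 400.2 CPM.

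Among the 9 highest Ttr libraries, male PAE-VEH P42 replicate 3 had the most brain endothelial transcripts, 316 CPM summed over 9 markers beside 206 to 257 CPM in the other 8. Female PAE-AAE P90 replicate 3 had the most cortical excitatory transcripts, 688 CPM beside 140 to 215 CPM.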

How the results depend on the processing

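The 66 higher and 12 lower genes of the 9 highest against the 18 lowest libraries stayed within 1.5 times under other size factors, no filter, DESeq2, no covariate, the 12 highest libraries and all other 45 as the low class. With the 6 highest libraries the counts were 219 and 40. Omitting each of the 9 in turn gave 58 to 105 higher and 9 to 22 lower genes, the largest without male PAE-VEH P42 replicate 3. For the 34 named genes and 3 unnamed loci at least 2-fold apart, 51 of 629 alternative folds moved by more than 1 SD of the low libraries. Genes with smaller folds were not examined in this way. In the 27 middle libraries 1 gene was called, and 8 by DESeq2, 2 without the 3 libraries against their sex label, 24 without the group covariate and 6 in 45 libraries. The 45 are the 27 middle and the 18 lowest libraries, and the latter were selected by Ttr. Omitting each of the 27 in turn gave 0 to 2, with none without female FCL-VEH P90 replicate 8 and F5 as the second gene without female FCL-VEH P42 replicate 5 or male PAE-VEH P42 replicate 4, 5 or 6.

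For age in males, 938 genes became 1467 by DESeq2, 4 without the 9 highest libraries and 96 with log2 Ttr as a covariate. For age in females, 178 became 116 without the filter, 377 by DESeq2 and 73 without the libraries against their sex label. For ethanol at P42, 0 became 12 by DESeq2, and 0 to 1 when each female PAE-VEH P42 library was omitted, with 1 gene without replicate 2 or 3. For ethanol at P90 every alternative gave 0. The causes were not tested. No paired analysis was possible because the labels carry no replicate numbers that pair libraries across groups. Transcripts under 1 CPM rest on about 100 counts or fewer per library and are the least certain.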

Other observations

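Some genes outside the plexus lists were also at least 2-fold apart between the 9 highest and the 18 lowest Ttr libraries. They were chosen after their values were seen and carry no test. Oxt, the precursor of oxytocin, had a median of 13.6 CPM in the 9 highest libraries (1.69 to 45.8) and 0.599 CPM in the 18 lowest (0 to 32.6), a log2 fold of 3.63 ± 1.16. Avp, the precursor of vasopressin, had medians of 1.70 CPM in the 9 highest and 0.273 CPM in the 18 lowest, a log2 fold of 2.36 ± 0.82. Both neuropeptides overlapped between the classes, and their slopes on Ttr in the 27 middle libraries were -0.00 for Oxt and 0.71 for Avp, neither of which passed (edgeR adjusted p = 0.9997 and 0.738). Cnmd, chondromodulin, an inhibitor of vessel growth, had a log2 fold of 4.07 ± 0.58, Pla2g5, a secreted phospholipase, 2.37 ± 0.27, and Slc5a5, the sodium iodide symporter known from thyroid, 1.81 ± 0.28. Ebf2, Ebf3 and Nr2f2, which are transcription factors, had 2.24 ± 0.50, 1.74 ± 0.69 and 1.53 ± 0.35. Values of Cnmd, Pla2g5, Slc5a5, Ebf2, Ebf3 and Nr2f2 also overlapped between the classes. Cnmd, with a mean of 1.01 CPM, ranged from 0.233 to 6.17 CPM in the 9 highest and from 0 to 0.329 CPM in the 18 lowest libraries.

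The lowest fold of a named gene was that of Spetex2el1, at -4.54 ± 1.39, with medians of 0.0373 CPM in the 9 highest and 1.19 CPM in the 18 lowest libraries. It belongs to a family of close copies, so its counts are uncertain, and both classes held libraries at 0 and others above 4 CPM. Shisa3, an inhibitor of Wnt and FGF receptors, had -1.37 ± 0.51 and Akr1c14, a hydroxysteroid dehydrogenase, -1.21 ± 0.42.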
